A study of Homo sapiens with 40 samples.

Results

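The data compared here were the transcript levels of human skin fibroblasts collected 3 h after a challenge dose of 2 Gy X-rays that followed a priming dose of 5 cGy by 12 h (5 cGy + 2 Gy at 3 h), set against sham-irradiated cells. The comparison was chosen by the array titles, which gave 3 arrays for 5 cGy + 2 Gy at 3 h and 4 arrays for sham, 7 of the 40 arrays of the series. The cells were AG01522, a line of normal human skin fibroblasts that was grown to full confluence before treatment, and all groups share this line, with no genetic change. The sham group received 0 Gy and its labels carry the time code of a baseline control, without a time of 3 h or 15 h, so irradiation and time in culture after the start of treatment cannot be told apart in this comparison. Arrays of 2 Gy alone at 3 h (3 arrays) and of 5 cGy alone at 12 h (3 arrays) served as further comparisons, the first at the same time after the challenge dose and the second after the same priming dose. The labels number the arrays of a group as biological replicates. Values are log2 signals per gene after RMA, so a difference of 1 is a 2-fold change in signal. Precision is limited by the small number of arrays.

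The line was checked against its markers. All 12 fibroblast markers measured, among them collagen genes, vimentin and PDGF receptors, lay above the median of the arrays, with a mean level of 12.17 to 12.47 in sham and of 12.24 to 12.40 in 5 cGy + 2 Gy at 3 h. Markers of smooth muscle and myofibroblasts were also above the array median (7 of 7). Those of other types were mostly below it: 2 of 10 keratinocyte, 1 of 6 melanocyte, 1 of 8 endothelial, 1 of 9 leukocyte and 0 of 5 adipocyte markers lay above. No marker list held a changed gene, but with the replicate number as a block (below) CD68, 1 of the 9 leukocyte markers, passed (0.39 ± 0.10, adjusted p = 0.0433). RNA quality, as the GAPDH 3' minus middle probe difference on the log2 scale, was 0.16 to 0.30 in sham and 0.18 to 0.22 in 5 cGy + 2 Gy at 3 h. These are bulk samples, in which fewer cells expressing a gene and less of its RNA per cell cannot be told apart.

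Ionizing radiation breaks DNA, and the kinases that sense the breaks stabilize p53, a transcription factor. In fibroblasts, p53 raises a set of genes that halt the cell cycle (CDKN1A), that promote cell death (BBC3, AEN) and that switch p53 itself off again (MDM2, PPM1D). Cells exposed to a small dose before a large one can show less damage than cells given the large dose alone, a phenomenon known as the radioadaptive response.

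p53 binds DNA as a tetramer on a consensus of 20 bases, made of a pair of 10-base elements. Promoters from RefSeq (GRCh38.p14, 250 bases before to 50 bases after each annotated start) were searched on either strand, which for this self-complementary consensus gives the same matches, for the p53 consensus with its elements directly adjacent, the C and G of each core intact and at most 2 other mismatches. Such a match was present in 98 of 27305 genes (0.359%), in 2 of the 9 genes with a promoter entry that rose at 3 h (AEN and DCP1B), in 0 of 11 that fell, and in 4 of 39 p53 targets (AEN, DDB2, FAS and MDM2). Shown are the matches of both rises and those of MDM2 and DDB2, p53 targets that passed the test against sham with the replicate block, with up to 40 bases on each side and none past the start except within the match, and the match in capitals. They are at chr15:88621266-88621339 (plus strand, AEN, match 34 to 15 bases before the start), chr12:2004610-2004707 (minus strand, DCP1B, 212 to 193 bases before the start), chr12:68808883-68808982 (plus strand, MDM2, 94 to 75 bases before its downstream start) and chr11:47214969-47214988 (plus strand, DDB2, from 5 bases before to base 15 after a start). The first 3 have 2 mismatches and the DDB2 match has 1.
AEN: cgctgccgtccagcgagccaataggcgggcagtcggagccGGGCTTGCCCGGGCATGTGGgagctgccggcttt
DCP1B: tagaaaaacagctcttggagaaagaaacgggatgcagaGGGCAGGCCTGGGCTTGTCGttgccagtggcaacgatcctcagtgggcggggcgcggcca
MDM2: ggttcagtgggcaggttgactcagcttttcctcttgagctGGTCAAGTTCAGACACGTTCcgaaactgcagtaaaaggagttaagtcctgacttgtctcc
DDB2: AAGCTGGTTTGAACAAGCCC
A match describes these letters only, and binding was not measured.

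Against sham, 24 of 18244 genes changed 3 h after 5 cGy + 2 Gy (0.132%; adjusted p under 0.05), 10 upwards (0.0548%) and 14 downwards (0.0767%). The rises were led by GDF15, BBC3 and PPM1D, which are induced by p53, and the falls by CDC42BPA, TNFRSF11B and KDM4B. At an unadjusted p under 0.05 there were 717 higher (3.93%) and 448 lower genes (2.46%), and the median of all genes was 0.02 on the log2 scale. When the replicate number entered the model as a block, 253 genes changed (161 up, 0.882%, and 92 down, 0.504%), and all 24 genes were among them. Sham replicate 4 is the only array with its number, so the block fit compares the primed arrays with sham replicates 1 to 3 only. Without the block, leaving out sham replicate 4 gave 21 genes. Fitted on the 7 arrays alone, without the spread of the other groups, limma called 0 genes (533 at an unadjusted p under 0.05). Leaving out primed replicate 1, 2 or 3 left 6, 8 or 13 genes, and without primed replicate 1 none of the 14 falls was called. Leaving out sham replicate 2 or 3 left 10 or 13.

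GDF15, a secreted stress cytokine of the TGF-beta superfamily, had the highest change. Its log2 signal was 8.74, 8.93, 9.73 and 9.89 in the 4 sham arrays and 11.01, 11.08 and 11.67 after 5 cGy + 2 Gy. Every irradiated array lay above every sham array, and the change was 3.80-fold (log2 1.93 ± 0.28, SE; adjusted p = 0.00021). BBC3, the gene of the pro-apoptotic BCL2 family protein PUMA, had 7.55, 7.50, 8.17 and 8.34 in sham and 9.31, 9.35 and 9.68 after both doses. This was 2.94-fold higher (1.56 ± 0.17, adjusted p = 1.68e-06), the smallest p of all genes, although sham replicates 1 and 2 lay well below replicates 3 and 4. A similar split of the sham arrays was present in GDF15.

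PPM1D encodes the phosphatase WIP1, which dephosphorylates p53 and its activating kinases. Its log2 signal was 8.12, 7.95, 7.84 and 7.65 in sham and 8.98, 8.82 and 8.93 after 5 cGy + 2 Gy, a 2.03-fold rise (1.02 ± 0.13, adjusted p = 3.41e-05) with no overlap between the groups. CDKN1A, the cyclin-dependent kinase inhibitor p21, was already at a high level of 12.89, 12.63, 13.19 and 13.22 in sham. It stood at 13.68, 13.68 and 13.84 after both doses (0.75 ± 0.10, 1.68-fold, adjusted p = 6.17e-05). AEN, a nuclease that takes part in apoptosis downstream of p53, was 8.43, 8.72, 8.92 and 9.12 in sham and 9.45, 9.78 and 9.67 after irradiation (0.83 ± 0.11, adjusted p = 0.000126). IER5, an immediate early gene that is also a p53 target, was 9.41, 9.79, 9.84 and 9.95 in sham against 10.42, 10.44 and 10.51 (0.71 ± 0.10, adjusted p = 0.000197). In both genes the lowest irradiated array exceeded the highest sham array. These 6 genes, all members of the p53 target list, kept their call in 16 of the 17 alternative analyses and lost it only in the fit on the 7 arrays alone.

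The other 4 rises were smaller. BCL2L1, whose main product BCL-XL restrains apoptosis, was 7.69, 7.85, 8.27 and 8.38 in sham and 8.51, 8.65 and 8.73 after irradiation (0.58 ± 0.12, adjusted p = 0.0319). TNFRSF10D, a decoy receptor that binds the death ligand TRAIL without passing on the signal, was 9.29, 9.19, 9.58 and 9.48 against 9.95, 10.0004 and 9.90 (0.57 ± 0.11, adjusted p = 0.0266). Thus genes that promote cell death (BBC3, AEN) and genes that restrain it (BCL2L1, TNFRSF10D) were among the rises. RAP2B, a small GTPase of the RAS family, was 11.0001 to 11.19 in sham and 11.45 to 11.56 after irradiation (0.44 ± 0.07, adjusted p = 0.00235). DCP1B, a subunit of the mRNA decapping complex, was 7.99 to 8.33 in sham and 8.48 to 8.66 after irradiation (0.41 ± 0.09, adjusted p = 0.0344). Of 16 further probe sets of the rising genes, 15 were also higher and 10 of these had an unadjusted p under 0.05. For RAP2B, DCP1B and TNFRSF10D no further probe set had a p under 0.05.

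**Figure D1:**
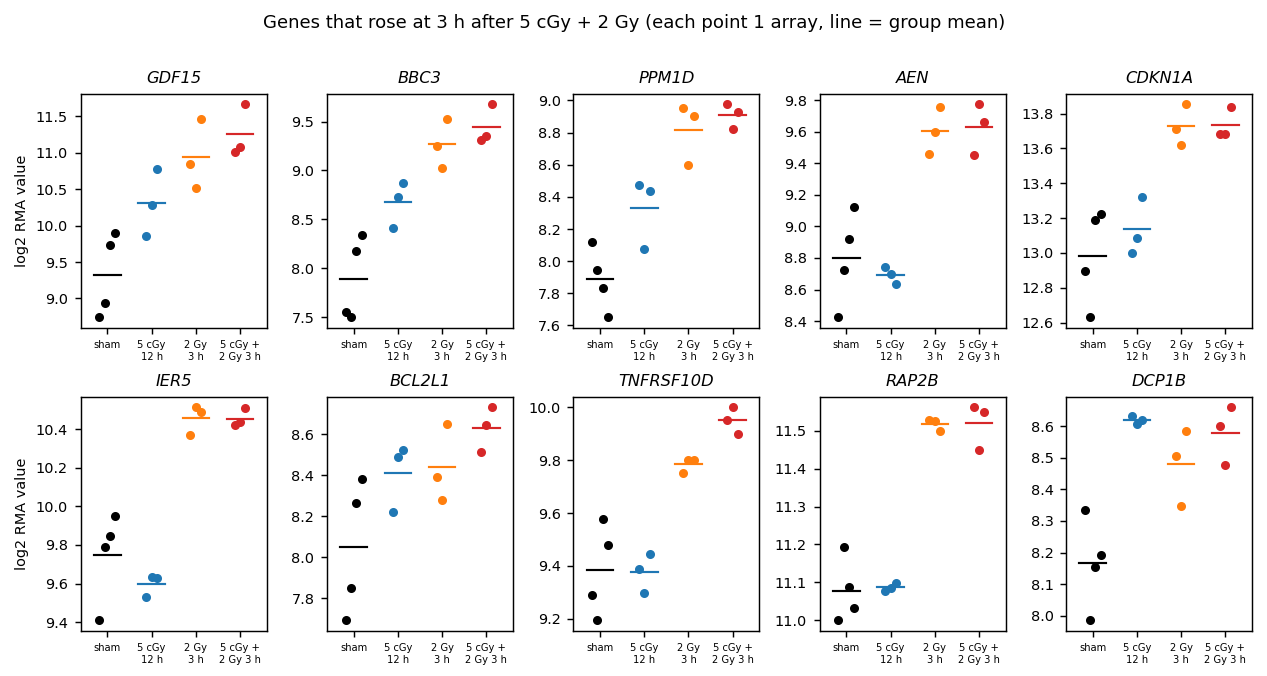
Log2 RMA value of the 10 genes that rose (y axis, own scale for each gene) in each array of sham, 5 cGy at 12 h, 2 Gy at 3 h and 5 cGy + 2 Gy at 3 h, with 1 point per array and a line at the group mean. The 3 arrays of 5 cGy + 2 Gy (red) lie above all 4 sham arrays (black) in each panel. In every panel except that of TNFRSF10D they overlap those of 2 Gy alone.

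Among 46 measured p53 targets, 6 rose and 0 fell (adjusted p under 0.05, beside 0.0548% and 0.0767% of all genes). At an unadjusted p under 0.05, 23 were higher and 1 lower, beside 3.93% and 2.46% of all genes. In all, 41 of the 46 were above sham, as were 10105 of all 18244 genes. The median log2 change of the 46 was 0.31 beside 0.02 for all genes. With the replicate block 17 of 46 rose, beside 0.882% of all genes. By role, the 6 cell cycle arrest genes had a median of 0.74 and the 6 feedback genes of 0.65, while the 14 cell death genes had 0.21 and the 7 DNA repair genes 0.20. The 13 genes of metabolism and stress were all above sham, with a median of 0.49.

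Several known p53 targets did not pass the test against sham, and are named here after their values were seen. MDM2, the ligase that targets p53 for degradation, was 8.64, 7.39, 7.35 and 7.04 in sham and 9.02, 8.44 and 8.32 after irradiation (0.99 ± 0.27, adjusted p = 0.279). TP53INP1, a cofactor of p53, was 9.93, 8.78, 9.26 and 9.01 against 10.80, 10.10 and 9.996 (1.06 ± 0.29, adjusted p = 0.279). In both genes sham replicate 1 was the highest of its group, and primed replicate 1 was likewise the highest of its own. PHLDA3, which restrains the kinase AKT, missed the threshold narrowly (0.67 ± 0.15, adjusted p = 0.0506), as did SESN1, a stress-induced regulator of mTOR signalling (0.93 ± 0.21, adjusted p = 0.0639), and PLK3, a stress-responsive polo-like kinase (0.76 ± 0.17, adjusted p = 0.0647). GADD45A, which acts in growth arrest and repair, had a log2 difference of 0.72 ± 0.18 (adjusted p = 0.138). DDB2, which recognizes damaged DNA in nucleotide excision repair, had one of 0.46 ± 0.20 (adjusted p = 0.736). BAX, a pore-forming apoptosis protein, had a difference of 0.21 ± 0.14 (adjusted p = 0.82) and FAS, a death receptor, one of 0.08 ± 0.25 (adjusted p = 0.964). With the replicate block, which also leaves sham replicate 4 out of the difference, all of these genes except FAS passed. DDB2 was then at 0.65 ± 0.11 (adjusted p = 0.00245) and BAX at 0.36 ± 0.08 (adjusted p = 0.0201).

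**Figure D2:**
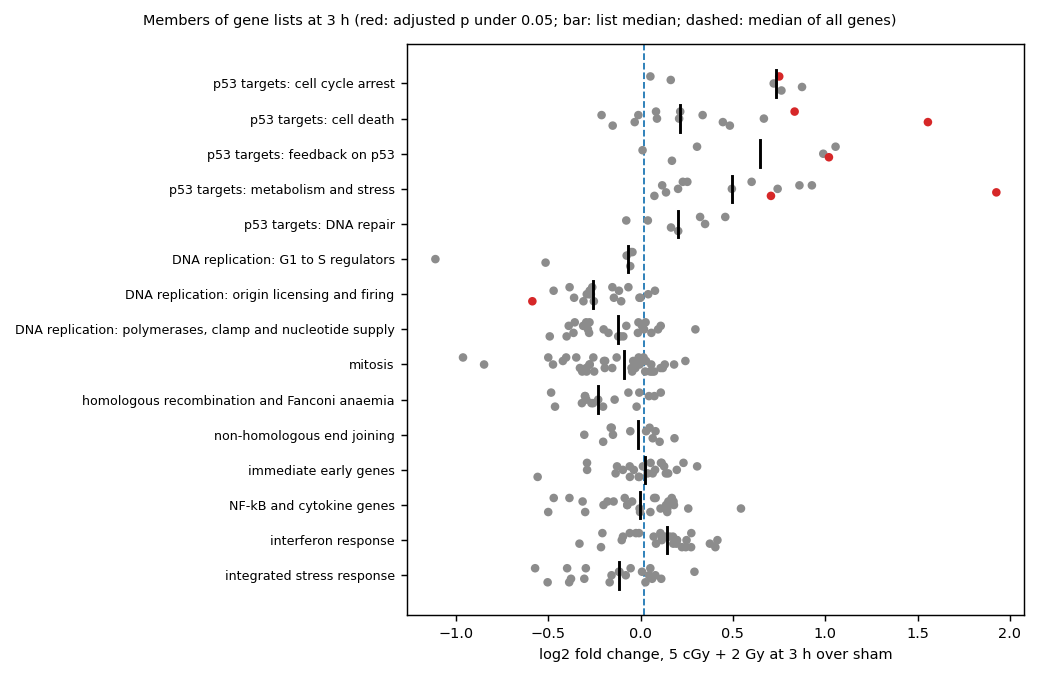
Log2 fold change of 5 cGy + 2 Gy at 3 h over sham (x axis) for the measured members of 9 gene lists, with the p53 targets and the replication genes split by role (y axis). Each point is 1 gene, red points had an adjusted p under 0.05, black bars are list medians and the dashed line is the median of all genes. Most p53 targets lie to the right, with a median of 0.74 for cell cycle arrest, and the origin licensing genes to the left, with a median of -0.26.

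The 14 falls did not belong to 1 of the lists, and 1 of them, MCM6, was a replication gene. CDC42BPA, a kinase that acts on the actomyosin cytoskeleton downstream of CDC42, was 8.64, 8.10, 7.63 and 7.57 in sham and 6.89, 6.80 and 6.87 after 5 cGy + 2 Gy (-1.13 ± 0.24, 2.19-fold lower, adjusted p = 0.0344). TNFRSF11B, or osteoprotegerin, the secreted decoy receptor for RANKL, was 10.48, 9.90, 9.83 and 9.77 against 9.19, 8.996 and 9.15 (-0.89 ± 0.19, adjusted p = 0.0344). Sham replicate 1 was the highest array in both genes, and without it neither passed the test, as without some other single arrays. KDM4B and KDM4A encode histone lysine demethylases of 1 family. KDM4B was 8.63, 8.72, 9.02 and 9.23 in sham and 7.76, 8.07 and 8.32 after irradiation (-0.85 ± 0.17, adjusted p = 0.0301). For KDM4A the values were 7.65, 7.86, 7.84 and 7.68 against 7.05, 6.89 and 7.16 (-0.73 ± 0.15, adjusted p = 0.0344). BRD2, a bromodomain protein that reads acetylated histones, was 9.72, 9.92, 10.11 and 10.13 in sham and 9.21, 9.43 and 9.45 after irradiation (-0.61 ± 0.11, adjusted p = 0.00728), the smallest p among the falls.

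LYN, a SRC family kinase, was 9.35, 9.57, 9.23 and 9.24 in sham and 8.57, 8.65 and 8.74 after both doses (-0.69 ± 0.13, adjusted p = 0.0194). SECISBP2, which binds the element that directs selenocysteine into selenoproteins, had sham values within 7.75 to 7.89 and irradiated values of 7.27, 7.001 and 6.96 (-0.74 ± 0.16, adjusted p = 0.0344). LSG1, a GTPase needed for export and maturation of the large ribosomal subunit, was 7.82 to 8.18 in sham and 7.10 to 7.29 after irradiation (-0.78 ± 0.16, adjusted p = 0.0266). In all 3 genes the groups were apart by more than either group's own range. MCM6, a subunit of the replicative helicase, was 8.90, 9.001, 8.85 and 8.66 in sham and 8.37, 8.20 and 8.24 after irradiation (-0.59 ± 0.12, adjusted p = 0.029). After 5 cGy alone at 12 h it was also lower than in the same sham arrays (-0.52, adjusted p = 0.0418). Both doses at 3 h differed from that group by -0.07 (adjusted p = 0.949). The remaining falls were MAP1A, a microtubule-binding protein (-0.78 ± 0.17), TTC9 (-0.76 ± 0.15), CCSER2 (-0.66 ± 0.14), DLGAP4, a scaffold protein (-0.64 ± 0.12), and IGHV7-81, an immunoglobulin segment at 3.11 to 3.84, near the lowest levels on the arrays (-0.53 ± 0.11). Their adjusted p values were between 0.0194 and 0.0456.

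**Figure D3:**
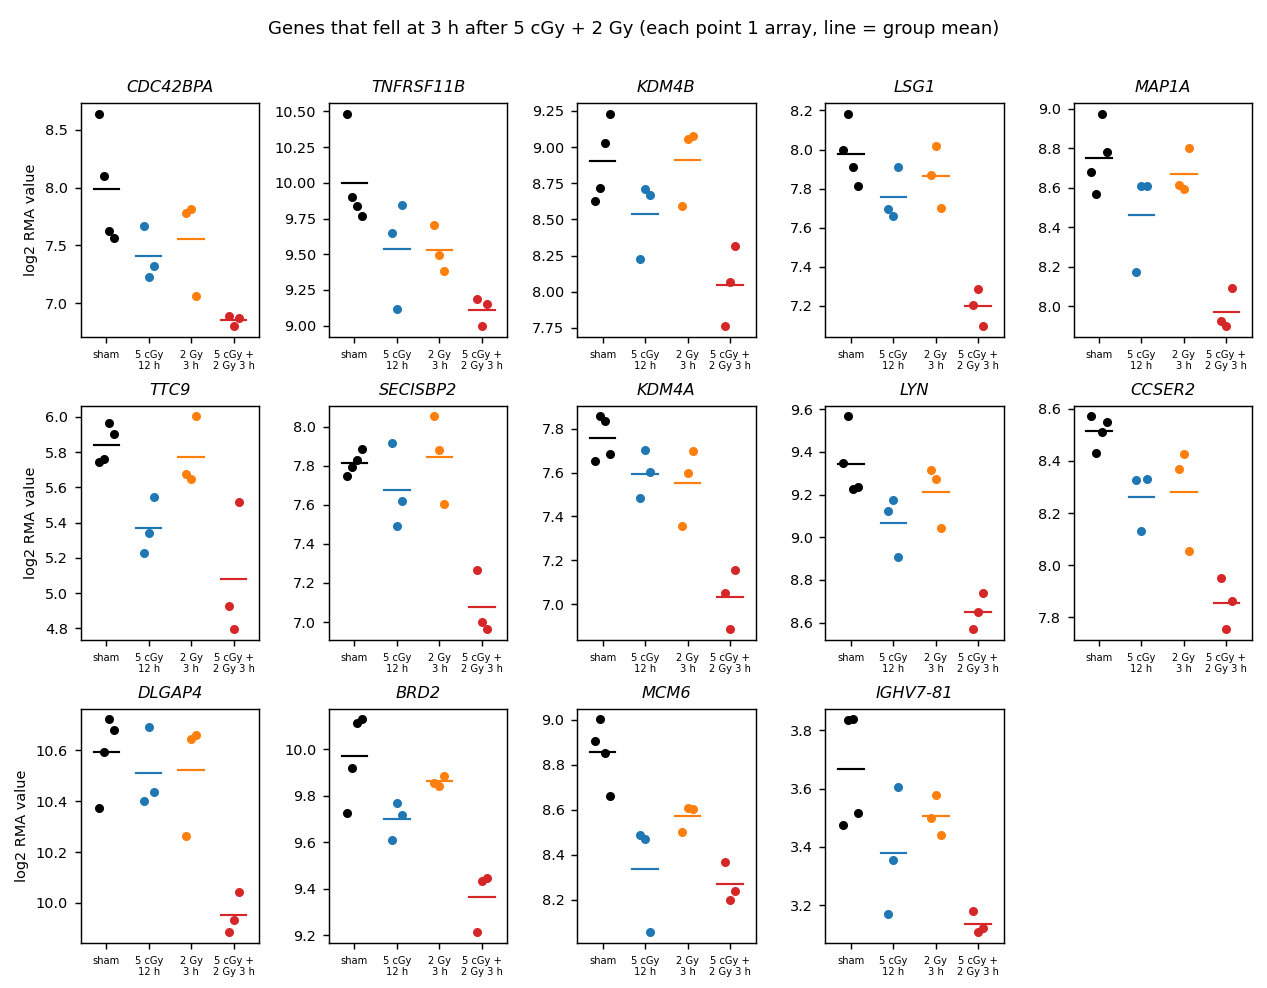
Log2 RMA value of the 14 genes that fell (y axis, own scale for each gene) in each array of the same 4 groups, with 1 point per array and a line at the group mean. The 3 arrays of 5 cGy + 2 Gy at 3 h (red) lie below all 4 sham arrays in each panel. They also lie below all arrays of 2 Gy alone and of 5 cGy at 12 h in several panels. These are LSG1, SECISBP2, MAP1A, BRD2, LYN, DLGAP4, CCSER2, KDM4A and CDC42BPA.

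The falls rested on single probe sets more than the rises did. Of 31 further probe sets of the falling genes, 22 were also lower and 6 of these passed an unadjusted p of 0.05. The other 9 were higher, and 1 of these, of MAP1A (0.30 ± 0.10), passed it. The 3 further probe sets of KDM4B were all above sham, by 0.06, 0.26 and 0.11, and the 5 of CDC42BPA were between -0.24 and 0.06. The only other probe set of KDM4A was above sham as well (0.12 ± 0.14). Second probe sets of LYN (-0.70 ± 0.15), LSG1 (-0.60 ± 0.15), CCSER2 (-0.75 ± 0.17) and DLGAP4 (-0.45 ± 0.12) were lower as well. When the probe sets of a gene were averaged, 14 genes changed, 10 up and 4 down, and 9 of the 24 were among them.

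DNA replication genes lay below sham as a group without most members passing the test. Of 51 measured, 42 were lower, where 8139 of all 18244 genes were. In that direction 10 had an unadjusted p under 0.05, beside 2.46% of all genes. At that p 1 gene (PCNA, the sliding clamp, 0.30 ± 0.10, adjusted p = 0.499) was higher. The median was -0.15 over the list and -0.26 over the 20 genes of origin licensing and firing. CCNE2, the cyclin that drives entry into S phase, was 6.08, 5.38, 4.27 and 4.44 in sham and 4.03, 4.01 and 3.75 after irradiation (-1.11 ± 0.27, adjusted p = 0.115). Its sham arrays were further apart than the group means. CDC6, which loads the helicase at origins, was 9.03, 9.41, 9.25 and 9.22 against 8.57, 9.02 and 8.69 (-0.47 ± 0.20, adjusted p = 0.715). TIPIN, a factor that stabilizes forks, had a log2 difference of -0.39 ± 0.12 (adjusted p = 0.428). With the block CCNE2, MCM6 and TIPIN passed. After 5 cGy alone at 12 h, against the same sham arrays, 29 of the 51 genes were lower (median -0.06). CCNE2 was then at -0.94 (adjusted p = 0.127), and both doses at 3 h differed from that group by -0.17 (adjusted p = 0.945).

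Mitotic genes were less displaced, with 27 of 40 lower and a median of -0.09, where 8139 of all 18244 genes were lower. TOP2A, the topoisomerase that untangles chromosomes, was 7.68, 8.02, 7.14 and 7.50 in sham and 6.37, 7.22 and 6.29 after irradiation (-0.96 ± 0.27, adjusted p = 0.279), NCAPG of the condensin complex had -0.85 ± 0.27 (adjusted p = 0.442), and WEE1, the kinase that restrains entry into mitosis, had -0.29 ± 0.09 (adjusted p = 0.408). The primed replicate 2 overlapped the sham range in TOP2A. All 3 passed with the block. In homologous recombination and the Fanconi pathway, 14 of 17 genes were lower (median -0.23), with the smallest p for EXO1, a nuclease that resects breaks (-0.46 ± 0.14, adjusted p = 0.369). The lowest value was that of BARD1, the partner of BRCA1 (-0.48 ± 0.28, adjusted p = 0.79), the one member that passed with the block (-0.66 ± 0.16, adjusted p = 0.0296). Of the non-homologous end joining genes, 6 of 12 were higher and 6 lower (median -0.01).

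Other stress programmes held no changed gene without the block. The medians were 0.03 for 24 immediate early genes, 0.00 for 27 NF-kB and cytokine genes, -0.11 for 21 genes of the integrated stress response, -0.11 for 16 heat shock genes and 0.14 for 28 interferon response genes, of which 20 were higher. Of all 18244 genes 10105 were higher. FOS, an immediate early transcription factor, varied widely: 10.20, 11.28, 11.85 and 11.49 in sham and 11.93, 10.42 and 11.43 after irradiation (0.05 ± 0.90, adjusted p = 0.996). MYC, which drives cell growth, was 10.10, 10.32, 9.89 and 9.73 in sham and 9.53, 9.61 and 9.22 after irradiation (-0.56 ± 0.17, adjusted p = 0.408). ERRFI1, a feedback inhibitor of the EGF receptor, had a difference of -0.59 ± 0.18 (adjusted p = 0.371). The groups did not overlap in MYC and ERRFI1, as in 364 genes (2%) over the table in this direction, and both passed with the block. Histone, ribosomal protein, cholesterol synthesis, NRF2, hypoxia, Notch, clock, matrix, protease, excision repair and checkpoint lists also had 0 changed genes, with medians between -0.03 and 0.11, and so did the MAPK feedback (-0.07) and endoplasmic reticulum chaperone (-0.09) lists. The block changed this for single members of several lists: IRF9 of the interferon response (0.33 ± 0.07, adjusted p = 0.0212), NTHL1 of excision repair (0.42 ± 0.11, adjusted p = 0.0387) and DUSP4 of MAPK feedback (0.56 ± 0.14, adjusted p = 0.0321) rose. DUSP6 of MAPK feedback (-0.74 ± 0.17, adjusted p = 0.0243), LOX of the matrix (-0.48 ± 0.11, adjusted p = 0.0246) and WEE1, which is also on the checkpoint list (-0.32 ± 0.08, adjusted p = 0.0448), fell.

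Next, the primed cells were set against cells that received 2 Gy alone, both 3 h after that dose. The primed cells were collected 15 h after their first dose and the others 3 h after theirs. The priming dose and the time since the start of treatment therefore cannot be told apart in this comparison. No gene passed limma's test (0%, 0 of 18244), with or without the block. The smallest adjusted p was 0.185 without the block and 0.0797 with it. Without the block 952 genes had an unadjusted p under 0.05, 161 higher (0.882%) and 791 lower (4.34%) in the primed cells. With array weights 7 genes were called, and 1 without primed replicate 3. The lowest p values belonged to THSD4 (-0.55 ± 0.12, adjusted p = 0.185) and FAM163B (-0.48 ± 0.10, adjusted p = 0.185) among the lower genes and to ZNF490 (0.48 ± 0.10, adjusted p = 0.185) and AP1S1 (0.50 ± 0.13, adjusted p = 0.51) among the higher ones. RNA quality differed between these groups: the GAPDH 3' minus middle difference was 0.25 to 0.54 with 2 Gy alone and 0.18 to 0.22 in the primed cells, without overlap. The 334 olfactory receptor genes, which have low values in fibroblasts, were lower in the primed cells in 253 cases (median -0.09). Of all 18244 genes 11056 were lower (median -0.03). The part of the RNA quality difference in the skew towards lower genes was not tested. With that GAPDH difference added to the model, 0 genes passed and 920 had an unadjusted p under 0.05.

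For the p53 genes that rose against sham, the primed and unprimed cells were near each other. The log2 difference was 0.01 for CDKN1A (95% interval -0.21 to 0.22), 0.03 for AEN (-0.22 to 0.28), -0.002 for IER5 (-0.22 to 0.22) and 0.09 for PPM1D (-0.19 to 0.37). It was 0.18 for BBC3 (-0.18 to 0.54) and 0.31 for GDF15 (-0.30 to 0.91), and these intervals span additions of up to that size. With 2 Gy alone GDF15 was 10.85, 10.52 and 11.46 and BBC3 was 9.25, 9.02 and 9.53, which overlapped the primed arrays. Over the 46 p53 targets the median difference was 0.05, with 2 genes higher at an unadjusted p under 0.05. These were ZMAT3, an RNA-binding p53 target (0.61 ± 0.17, adjusted p = 0.562), with 9.20, 8.99 and 8.96 in the primed cells and 8.64, 8.26 and 8.42 after 2 Gy alone, and CCNG1, a cyclin that feeds back on p53 (0.60 ± 0.27, adjusted p = 0.926). ATF3, a stress transcription factor, went the other way, 8.61, 7.79 and 7.81 in the primed cells and 9.36, 8.40 and 8.31 after 2 Gy alone (-0.62 ± 0.31, adjusted p = 0.955).

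Of the genes that fell against sham, none passed the test against 2 Gy alone. They had been chosen for low values in the same 3 primed arrays, which favours negative differences here, so their values are given as a description. The difference was -0.86 for KDM4B (95% interval -1.24 to -0.48, adjusted p = 0.185), -0.77 for SECISBP2 (-1.11 to -0.43, adjusted p = 0.185), -0.57 for DLGAP4 (-0.84 to -0.30, adjusted p = 0.24) and -0.50 for BRD2 (-0.73 to -0.26, adjusted p = 0.24). BRD2 was 9.86, 9.84 and 9.89 after 2 Gy alone, within its sham range and above the primed arrays. Against sham, with the same 4 sham arrays, 2 Gy alone at 3 h gave log2 values of -0.11 for BRD2, 0.01 for KDM4B, 0.03 for SECISBP2 and -0.07 for DLGAP4. Other falls were lower after 2 Gy alone too: -0.47 for TNFRSF11B, -0.43 for CDC42BPA, -0.28 for MCM6, -0.23 for CCSER2 and -0.21 for KDM4A. The remaining ones were IGHV7-81 at -0.16, LYN at -0.13, LSG1 at -0.11, MAP1A at -0.08 and TTC9 at -0.07. For the rises 2 Gy alone gave 1.62 for GDF15, 1.38 for BBC3, 0.93 for PPM1D, 0.81 for AEN, 0.74 for CDKN1A and 0.71 for IER5.

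**Figure D4:**
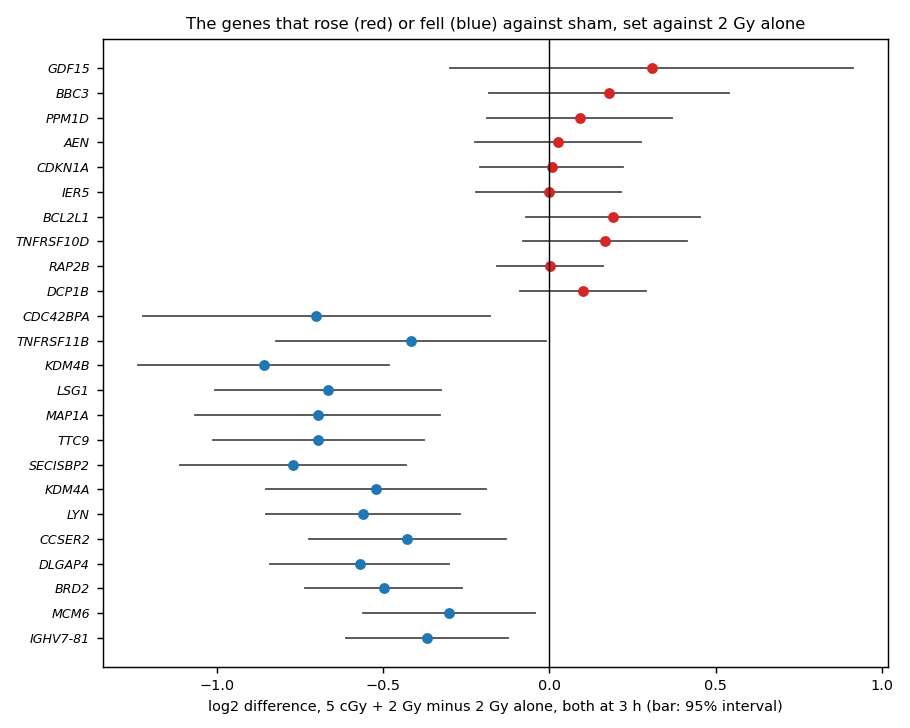
Log2 difference between 5 cGy + 2 Gy and 2 Gy alone, both at 3 h (x axis, points, with bars for the 95% interval of each gene), for the genes that rose (red) or fell (blue) against sham (y axis). Rises range from IER5 at -0.002 to GDF15 at 0.31, and falls reach KDM4B at -0.86. Both sets were chosen with the same primed arrays, and no gene passed the test adjusted over all genes.

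The replication genes also lay lower in the primed cells than after 2 Gy alone, 48 of 51 with a median of -0.20 beside -0.03 for all genes, and 7 had an unadjusted p under 0.05 in that direction (4.34% of all genes did). CDC25A, the phosphatase that activates cyclin-dependent kinases at the start of S phase, was 6.40, 6.90 and 6.60 in the primed cells and 7.04, 7.68 and 7.28 after 2 Gy alone (-0.70 ± 0.22, adjusted p = 0.678). RRM2, the small subunit of ribonucleotide reductase, was 9.77, 10.22 and 9.85 against 10.41, 10.90 and 10.34 (-0.60 ± 0.25, adjusted p = 0.908). CDC6 had a difference of -0.54 (95% interval -0.98 to -0.10, adjusted p = 0.908). In CDC25A and RRM2 the groups did not overlap, as in 1464 genes (8.02%) lower in the primed cells. Among NF-kB and cytokine genes 22 of 27 were lower (median -0.20, 2 at an unadjusted p under 0.05), and among immediate early genes 20 of 24 (median -0.10, 1 at that p), where 11056 of all 18244 genes were lower. The 1 immediate early gene was NR4A3, a nuclear receptor, with 6.22, 5.96 and 5.84 against 6.66, 6.61 and 6.53 (-0.59 ± 0.15, adjusted p = 0.437).

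Finally, 5 cGy + 2 Gy at 3 h was compared with 5 cGy alone at 12 h, which had the same priming dose but was collected 12 h after it rather than 15 h, so the challenge dose and 3 h of further time cannot be told apart. Here 95 genes changed (0.521%), 19 higher (0.104%) and 76 lower (0.417%) in the cells that had also received 2 Gy. RNA quality differed between these groups without overlap: the GAPDH 3' minus middle difference was 0.26 to 0.30 after 5 cGy at 12 h and 0.18 to 0.22 after both doses, and the ACTB 3' minus 5' difference 2.63 to 2.98 and 2.34 to 2.56. Its part in the calls was not tested, and with the GAPDH difference added to the model 77 genes changed. With the block there were 335 (70 up, 0.384%, and 265 down, 1.45%), without any single array 21 to 46, and in the fit on the compared arrays alone 0 (1361 at an unadjusted p under 0.05). Of the 46 p53 targets 7 were higher and 0 lower: IER5 (0.86 ± 0.11, adjusted p = 6.71e-05), AEN (0.94 ± 0.12, adjusted p = 8.35e-05), CDKN1A (0.60 ± 0.11, adjusted p = 0.00314), PLK3 (0.95 ± 0.18, adjusted p = 0.00933), ATF3 (1.49 ± 0.31, adjusted p = 0.0163), BBC3 (0.77 ± 0.18, adjusted p = 0.0335) and PPM1D (0.58 ± 0.14, adjusted p = 0.0389). The 5 cGy cells at 12 h had 8.74, 8.70 and 8.63 for AEN and 9.53, 9.63 and 9.63 for IER5, within the sham range. For BBC3 they had 8.41, 8.73 and 8.87, between sham and the cells given both doses. GDF15 had a difference of 0.95 ± 0.30 that did not pass (adjusted p = 0.193), with 9.85, 10.28 and 10.78 after 5 cGy. RAP2B (0.43 ± 0.08, adjusted p = 0.00444) and TNFRSF10D (0.57 ± 0.12, adjusted p = 0.0168) were also higher, whereas DCP1B was at a similar level in both groups (-0.04 ± 0.09, adjusted p = 0.96).

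Further genes were higher in the cells given both doses. These included NOCT, a circadian phosphatase (0.80 ± 0.15, adjusted p = 0.00608), BHLHE40, a repressor of the clock (0.76 ± 0.16, adjusted p = 0.016), SRSF5, a splicing factor (0.67 ± 0.16), COXFA4L3 (0.66 ± 0.14) and IL1RL2, a receptor of the interleukin-1 family (0.61 ± 0.14). NOCT was 6.47, 6.61 and 6.56 after both doses and 6.01 to 6.68 in sham, and stood at 5.74, 6.04 and 5.45 after 5 cGy at 12 h. In this gene the 5 cGy group was the one that differed from sham (-0.69, adjusted p = 0.0193).

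Among the 76 lower genes were 2 of the 21 integrated stress response genes (0.417% of all genes were lower). DDIT3, the transcription factor CHOP, was 6.58, 6.61 and 6.76 after both doses and 7.63, 7.73 and 8.17 after 5 cGy at 12 h (-1.19 ± 0.24, adjusted p = 0.0149). CHAC1, which degrades glutathione and is induced by CHOP and its partners, was 7.20, 7.48 and 7.72 against 8.24, 8.89 and 8.98 (-1.24 ± 0.29, adjusted p = 0.0389). Sham values were 6.57, 6.81, 6.70 and 6.50 for DDIT3 and 8.04, 6.94, 7.25 and 7.42 for CHAC1, a range that holds all arrays given both doses. DDIT4, an inhibitor of mTOR on the same list, had the lowest value of all genes without passing (-1.82 ± 0.53, adjusted p = 0.136). Among the genes that passed, the lowest belonged to ZNF425, a zinc finger gene (-1.25 ± 0.19, adjusted p = 0.000916), at 5.15, 5.41 and 5.85 against 6.79, 6.63 and 6.73. AKNA, an AT-hook protein (-1.16 ± 0.23), POLG2, the accessory subunit of the mitochondrial DNA polymerase (-1.002 ± 0.17), LURAP1L (-0.99 ± 0.19), ARIH2OS (-0.95 ± 0.22), TIGD2 (-0.89 ± 0.20), MTRFR, a mitochondrial translation release factor (-0.87 ± 0.14), and IFRD1 (-0.86 ± 0.20) followed. Against sham, ZNF425 was at 0.93 after 5 cGy at 12 h (adjusted p = 0.0115) and at -0.31 after both doses (adjusted p = 0.79). For MTRFR these values were 0.76 (adjusted p = 0.00296) and -0.12 (adjusted p = 0.881). In these genes the 5 cGy group was the one that differed from sham, and sham values of the others named with them are not given here. All 40 mitotic genes were lower after both doses than after 5 cGy at 12 h, with a median of -0.37 beside 0.00 for all genes, and 1 of them, WEE1, passed (-0.46 ± 0.09, adjusted p = 0.016). Against sham, whose arrays both groups share, the mitotic median was 0.29 for 5 cGy at 12 h and -0.09 for both doses at 3 h.

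The values of the same genes at later times after 5 cGy + 2 Gy, each against the same sham arrays, followed different courses. AEN went from 0.83 at 3 h to -0.15 at 6 h, 0.20 at 12 h and 0.22 at 24 h, and IER5 from 0.71 to -0.21, 0.03 and 0.31. RAP2B went from 0.44 to 0.19, 0.06 and 0.08. In contrast, CDKN1A was at 0.75, 0.73, 0.72 and 0.61, GDF15 at 1.93, 1.37, 1.96 and 2.04 and BCL2L1 at 0.58, 0.65, 0.69 and 0.65. BBC3 was at 1.56 at 3 h, 0.56 at 6 h (adjusted p = 0.189), 1.02 at 12 h and 1.23 at 24 h. MDM2 was at 0.99, 1.29, 0.87 and 0.60 and passed at 6 h (adjusted p = 0.0198). Of the falls, MCM6 was at -0.59, -0.65, -1.08 and -1.46, while KDM4B was at -0.85, -0.55, -0.39 and -0.21. DDIT3 was at 0.01 at 3 h and at 1.199, 0.97 and 1.29 thereafter. CDC6 was at -0.47, -0.999, -2.04 and -3.16 and RRM2 at -0.49, -0.48, -1.26 and -4.25. Differences between these times were not tested.

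**Figure D5:**
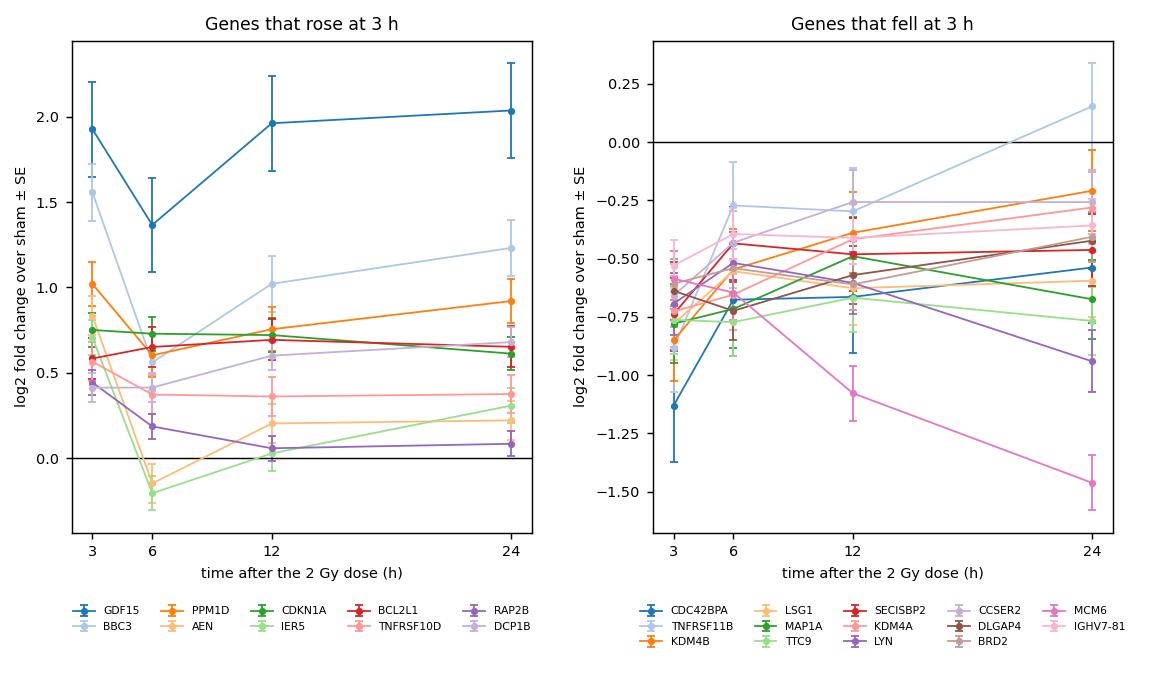
Log2 fold change over sham (y axis, ± SE from the model) against hours after the challenge dose in primed cells (x axis, from 3 to 24 h) for the 10 genes that rose at 3 h (left) and the 14 that fell (right), each time with 3 arrays against the same 4 sham arrays. AEN and IER5 are near or below 0 at 6 h, CDKN1A stays between 0.61 and 0.75, and MCM6 reaches -1.46 at 24 h.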

How the data were processed

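RNA of AG01522 cells was measured on 40 Affymetrix PrimeView arrays in 13 groups. The authors deposited 1 log2 value for each probe set, summarized with RMA, a method the submitters' processing notes name without a version. The table holds 49495 probe sets, of which 45284 had exactly 1 gene in the platform annotation. Each of 18244 genes was represented by its brightest probe set (mean of the 40 arrays). Values ran from 2.33 to 14.78 and array medians from 5.62 to 5.7. Detection calls were not used here. Gene names were matched to RefSeq (45214 probe sets), and the promoters came from RefSeq GRCh38.p14.

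A linear model with 1 mean for each group was fitted to the 40 arrays (limma 3.58.1, R 4.3.3, 27 residual degrees of freedom). P values were two-sided and adjusted by Benjamini-Hochberg over all genes in each of 3 comparisons, and called under 0.05. Errors are SE from the model. Tested on simulated data for the comparison with sham over 18244 genes, the procedure called 49% of changes of 0.5 and 94% of changes of 1 on the log2 scale. The simulated noise was independent between arrays and had the same spread in every group for a given gene. The real arrays deviated together by replicate number (below), so these shares describe the simulated setting and not the real comparison. Replicate numbers are shared between groups. Same-numbered arrays deviated together from their group means (correlations of 0.25 to 0.72 against sham, 0.32 to 0.68 against 2 Gy and 0.25 to 0.60 against 5 cGy, all above 0.1), so the fit with the replicate number as a block is given where it changed a call or moved a count against sham, and as total counts in the other comparisons. The pairing comes from this check, since the labels do not say what a number shares. Sham replicate 4 has no partner and correlated with primed replicate 3 at 0.63. As the only array with its number, it does not enter the differences estimated with the block, which rest on sham replicates 1 to 3.

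The comparison and the 32 gene lists were chosen with earlier results of these data known, so no set test was made and lists are described by counts and medians. List members without a row in the table were not analysed here. Genes were named if called against sham (24), if among the 4 smallest p values of a list or measured by PCR, or, in the other comparisons, if among the 10 largest called changes or the 2 smallest p values in a direction; p53 targets and other list members beyond these were chosen after their values were seen. Alternatives were another normalization (cyclic loess), array weights, a trend with a robust prior, the mean of probe sets, filters on variance and dim probe sets, the GAPDH difference as a covariate, the arrays compared alone, the methods' threshold (unadjusted p under 0.05 and 1.2-fold) and each array left out.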

Additional observations from a re-analysis of the deposited data

Results flagged for a closer look

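In each of 163 genes named by the rules above, the highest or lowest of the 4 sham arrays was compared with its nearest neighbour, and the gap as a share of the group's range exceeded Dixon's 95% limit in 6 genes. Chance flags about 1 in 20 such groups. Sham replicate 1 stood apart in 4 of them. It was low for ADM, a vasodilator peptide induced by hypoxia (12.00 beside 12.60 to 12.66, gap share 0.899), and for IL11, a cytokine of fibroblasts (7.93 beside 8.46 to 8.56, 0.831). It was high for COL1A1, a collagen gene (13.62 beside 13.27, 0.974), and for IFRD1 (8.94 beside 7.94 to 8.06, 0.885). Sham replicate 2 was low for DBP, a clock output gene (5.27 beside 5.76 to 5.86, 0.839), and sham replicate 3 for DES, a muscle filament gene at a low level here (6.47 beside 6.68 to 6.70, 0.924). None of the 24 genes that changed against sham was among them.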

How the results depend on the processing

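Against sham, where 24 genes were called, the replicate block gave 253. The count was 248 with the block and the GAPDH difference together, 141 with array weights, 14 with the mean of probe sets (10 up and 4 down), 0 with only the arrays compared, and 823 at the methods' threshold. Against 2 Gy alone the count of 0 became 7 with array weights and 721 at the methods' threshold. Against 5 cGy at 12 h the count of 95 became 335 with the replicate block, 269 with the block and the GAPDH difference, 378 with array weights, 49 with the mean of probe sets, 0 with only the arrays compared and 1275 at the methods' threshold. Leaving out 1 array gave 6 to 22 against sham, 0 to 1 against 2 Gy and 21 to 46 against 5 cGy. The share of rises among the calls against sham was 41.7% in the main analysis, 63.6% with the block, 65.3% with the block and the GAPDH difference, 58.9% with array weights and 71.4% with the mean of probe sets. The GAPDH difference alone, cyclic loess, the trend with a robust prior and both filters gave 24 to 27 against sham and 69 to 105 against 5 cGy. None of the 24 genes changed direction in any of the 17 alternatives (16 for IGHV7-81 and TTC9, which 1 alternative each left untested). The cause of the differences was not tested. The fit on the compared arrays alone takes the spread from those arrays, whereas the SE of the main fit pool all 13 groups. Sham arrays correlated with each other at 0.979 to 0.997 and the primed arrays at 0.992 to 0.997. Leaving out an array leaves 2 or 3 in a group. The block changed no call among the 24.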
